A study of Mus musculus with 14 samples.

Results

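The Zfp genes of MC-38 cells were chosen by name and by level: gene symbols made of Zfp and digits only, with a mean of at least 100 reads over the 6 culture libraries. There were 167 such genes among 337 symbols of that form and 24411 genes in all. The choice used measured counts, averaged over control and treated cultures, and no difference between groups. Just inside the minimum were Zfp704, at a mean count of 101, and Zfp248, at 103. Just outside were Zfp426, at 94.7, and Zfp60, at 94.0.

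MC-38 is a mouse colon cancer cell line, and RNA sequencing covered 14 libraries in 6 groups, all of WT MC-38 cells. In culture, 3 control libraries came from untreated cells and 3 from cells exposed to NET chromatin, the material of neutrophil extracellular traps, which are webs of DNA and protein cast out by neutrophils. The other libraries came from lung tumours of GFP-expressing MC-38 cells, flow sorted on day 30. They form 4 groups of 2 libraries: WT mice, WT mice with laparotomy on days 0 and 10, PAD4 KO mice, and PAD4 KO mice with laparotomy on the same days. PAD4 is the enzyme that citrullinates histones during NET release, and the KO is in the host, not in the tumour cells. Separate cultures, separate animals and pools of animals are not told apart by the labels, so the p-values rest on a spread between libraries that may be technical. In bulk RNA, fewer cells of a type and less RNA per cell cannot be told apart.

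Zinc finger proteins of the C2H2 class read DNA through arrays of small zinc-bound modules, each of which contacts a few bases. Many carry a KRAB domain, which recruits the corepressor KAP1 (Trim28) and, through it, the histone methyltransferase Setdb1, and these proteins are known for silencing retroelements and for keeping imprinted genes marked. Other genes named Zfp encode activators, chromatin proteins, RNA-binding proteins and ubiquitin ligases, so the name covers several functions.

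All 167 members had a gene model in GENCODE M21 (GRCm38), and 1 of them, Zfp191, matched only through an older symbol. Translation of the coding sequences found from 0 to 36 C2H2 fingers per protein, with a median of 9. A KRAB domain was scored in 74 proteins, by at least 7 of 9 conserved positions of its A box. Of the others, 62 had 5 or more fingers, 26 had 1 to 4, and 5 had no finger of this spacing. Below, no KRAB domain means only that none was scored by this rule. The genes lay on 20 chromosomes, with 39 on chromosome 7 and 19 on chromosome 17, and 81 of them had another member starting within 500 kb.

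The promoters of 4 members that the NET comparison turns on are shown, the pair with the greatest decrease and the pair with the greatest increase. Each is the 250 bases before the start of transcription in RefSeq (GRCm38.p6), 5′ to 3′ along the gene, and capitals mark matches to the motifs searched, on either strand. Zfp408 lies at chr2:91649792-91650041 (minus strand) and Zfp110 at chr7:12834511-12834760 (plus strand). Zfp207 lies at chr11:80383029-80383278 (plus strand) and Zfp367 at chr13:64153200-64153449 (minus strand).
Zfp408: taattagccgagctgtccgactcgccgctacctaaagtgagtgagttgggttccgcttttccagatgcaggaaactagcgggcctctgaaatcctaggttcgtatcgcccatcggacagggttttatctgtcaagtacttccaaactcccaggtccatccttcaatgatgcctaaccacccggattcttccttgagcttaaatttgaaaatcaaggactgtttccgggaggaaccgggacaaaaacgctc
Zfp110: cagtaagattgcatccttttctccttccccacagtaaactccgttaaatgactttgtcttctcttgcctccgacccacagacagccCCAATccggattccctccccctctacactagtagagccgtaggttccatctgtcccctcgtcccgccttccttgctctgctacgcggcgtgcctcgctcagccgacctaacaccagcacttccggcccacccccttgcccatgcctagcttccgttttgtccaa
Zfp207: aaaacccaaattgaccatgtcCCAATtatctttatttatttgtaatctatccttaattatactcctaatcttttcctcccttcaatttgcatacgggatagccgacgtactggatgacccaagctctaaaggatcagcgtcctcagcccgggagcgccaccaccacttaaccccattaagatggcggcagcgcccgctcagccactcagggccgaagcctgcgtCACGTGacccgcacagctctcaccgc
Zfp367: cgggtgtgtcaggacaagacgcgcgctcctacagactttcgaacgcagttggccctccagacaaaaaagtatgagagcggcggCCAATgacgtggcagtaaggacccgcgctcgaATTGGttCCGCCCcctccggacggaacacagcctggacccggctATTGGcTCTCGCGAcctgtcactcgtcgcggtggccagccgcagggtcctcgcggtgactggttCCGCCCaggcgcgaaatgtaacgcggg

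The searched motifs were CCAAT (the NF-Y box), GGGCGG (the GC box of Sp and KLF factors), TGACGTCA, CACGTG, TCTCGCGA, GCATGCGC and TATAAA, each on both strands. The Zfp408 window held none of these letters and was 49.6% G and C. The Zfp110 window held CCAAT, and that of Zfp207 held CCAAT and CACGTG. The Zfp367 window held 3 matches to CCAAT, 2 to GGGCGG and 1 to TCTCGCGA, at 64.0% G and C.

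Over the 135 members with a listed promoter (169 promoters), CCAAT was found in 45.6% and GGGCGG in 51.5%, against 33.8% and 32.7% of all 32851 listed promoters. CCAAT was in 52.7% of promoters of KRAB members and in 40.0% of the others. GGGCGG was in 35.1% of promoters of KRAB members and in 64.2% of the others. TCTCGCGA was in 3.55% of member promoters and 0.858% of all promoters, TGACGTCA in 2.96% and 1.55%, and GCATGCGC in 4.14% and 2.26%. CACGTG was at like shares, 5.92% and 6.02%, and TATAAA was in fewer member promoters, 7.69% against 12.4%. The median G and C content was 56.4% in member promoters and 52.4% in all. Several promoters can belong to 1 gene, and a match is only a run of letters.

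In culture, most Zfp members had less RNA with NET chromatin than without. Of the 167, 88 fell and 24 rose, and 55 did not pass the threshold (edgeR quasi-likelihood test, Benjamini-Hochberg adjusted p of 0.05 over 11753 genes). Scaled by library totals in place of TMM factors, which moved the median of all genes to -0.16, 110 members fell and 10 rose. With TMM factors, the share that fell was 52.7%, where 27.8% of all genes tested and 27.6% of genes with the same minimum count fell. The share that rose was 14.4%, where 26.3% of all genes tested and 28.9% of genes at that minimum rose. The median log2 fold change was -0.26 over the members (quartiles -0.68 and 0.04) and 0.02 over all 9283 genes at the minimum. At least 2-fold decreases were called in 24 members (14.4%) and in 2.42% of the genes at the minimum, and 0 members rose 2-fold. The median culture count was 285 for members and 600 for genes at the minimum, so values by count level are given below.

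**Figure D1:**
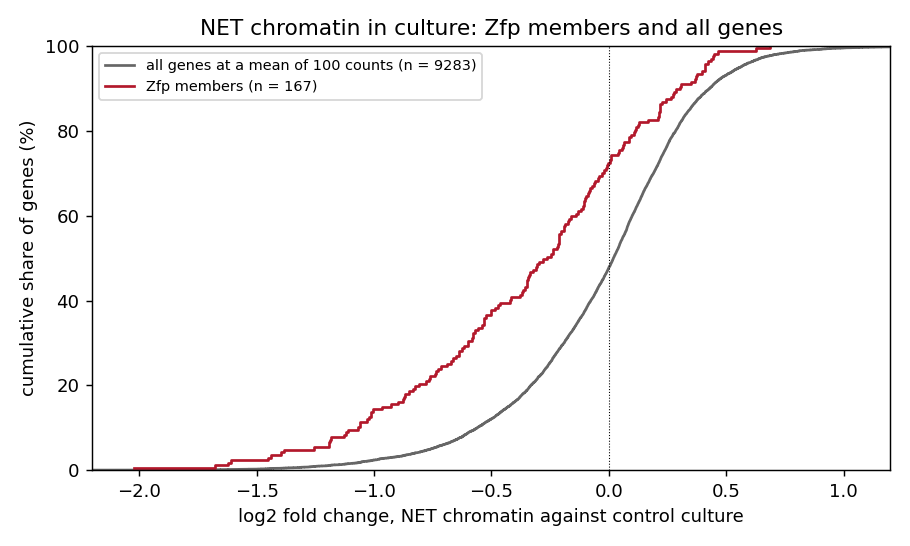
Cumulative share of genes (y axis, %) at or below each log2 fold change of NET chromatin against control culture (x axis), for the 167 Zfp members (red) and all 9283 genes at the same minimum count (grey). The members' line lies to the left, with a median of -0.26 against 0.02.

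Single libraries showed the same direction as the fit. In 82 members (49.1%) all 3 NET libraries lay below all 3 controls, and in 25 (14.97%) all lay above; over the genes at the minimum these shares were 30.2% and 32.2%. Both conditions, a call and groups without overlap, held for 79 members that fell and 21 that rose. The share of all genes that met both conditions was not worked out, so these counts have no background. The median member stood at -0.24, -0.32 and -0.29 log2 units against the control mean in the NET libraries, while all genes at the minimum stood at 0.01, 0.02 and 0.02. Summed over members, the level was 7353 to 7767 CPM, the depth-scaled count with TMM factors, in the controls and 6863 to 7150 CPM with NET chromatin.

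Count level goes with the share of calls, so members were set beside all genes of their own level. At mean counts of 100 to under 200, 45 of 63 members fell and 2 rose, which is 71.4% lower against 41.5% of all genes there. From 200 to under 400, 20 of 41 fell (48.8% against 36.4%), and from 400 to under 800, 16 of 36 fell (44.4% against 28.9%). From 800 to under 1600, 6 of 20 fell (30.0% against 22.8%). In the highest class, at 1600 or more, 1 of 7 fell and 5 rose, as 55.0% of all genes of that level did. Weighted to the members' levels, the shares of all genes were 34.0% lower and 20.7% higher. In the same order of classes, 2-fold decreases were called in 20.6%, 17.1%, 11.1%, 0% and 0% of members. Over all genes these shares were 7.34%, 3.78%, 1.64%, 0.591% and 0.307%. The median log2 values were -0.53, -0.21, -0.17, -0.07 and 0.27 for members. For all genes they were -0.22, -0.10, -0.001, 0.07 and 0.19.

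**Figure D2:**
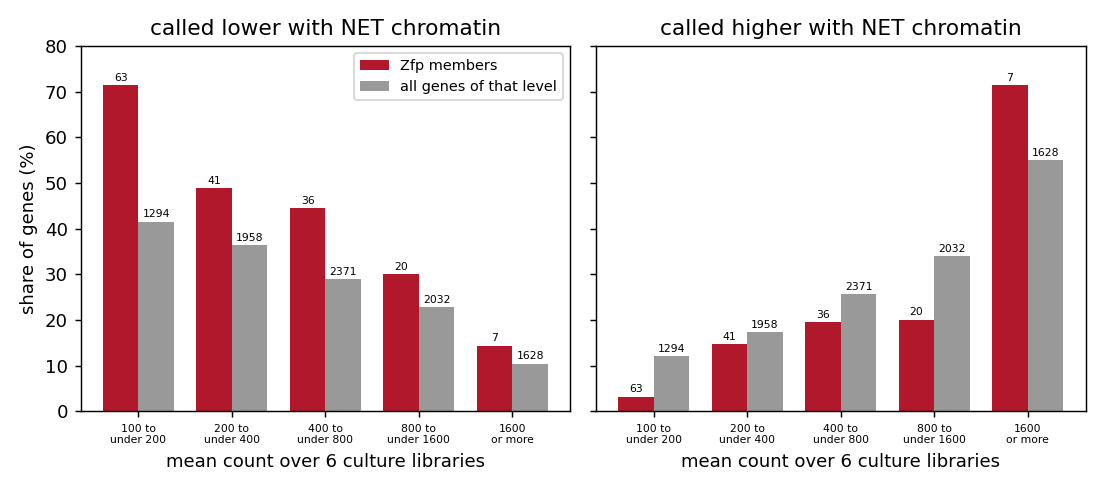
Share of genes (y axis, %) called lower (left) and higher (right) with NET chromatin in 5 classes of mean culture count (x axis), for Zfp members (red) and all genes of that class (grey). Numbers above the bars are genes tested, and the members' bars for lower calls stand above the grey ones in each class, from 71.4% against 41.5% to 14.3% against 10.4%.

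Members were also read within 4 classes of exonic length. In the shortest class, 17 of 30 members fell (56.7%), where 18.1% of all genes of that length did. In the next classes, 21 of 40 fell (52.5% against 27.5%) and 23 of 53 fell (43.4% against 31.3%). In the longest class, 27 of 44 fell (61.4%), where 33.4% of all did. The 170 Zfp symbols under the minimum count were not members: 114 were tested, 71 fell and 1 rose, with a median of -0.79, and 22 had no read in any culture. The share of all genes under that minimum was not worked out. At mean counts of 100 to under 200, the nearest class, 41.5% of all genes fell and 12.1% rose, with a median of -0.22.

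Library measures moved with the treatment. Reads outside counted features were 17.6 to 18.2% in the controls and 21.8 to 24.0% with NET chromatin, and unmapped reads were 5.93 to 7.04% and 8.45 to 11.5%. The 9 pan-leukocyte markers summed to 4.71 to 5.71 CPM in the controls and 15.9 to 17.5 CPM with NET chromatin, and none was at 0 in either group. The 7 epithelial markers, Epcam, Krt8, Krt18, Krt19, Cdh1, Vil1 and Cdx2, summed to only 0.837 to 1.69 CPM in the 6 cultures, with Cdh1 and Cdx2 at 0 in all controls, so these defining markers of epithelium were at or near 0 in the cultured line. The part of these measures in the Zfp result was not tested.

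The largest changes named below were picked among called members without overlap, 10 each way. Their lack of overlap follows from that choice. Zfp408 had the greatest decrease. Linked in people to inherited retinal disease, it encodes a protein with 10 fingers at chr2:91643669-91649791. Its level was 18.6, 18.4 and 18.04 CPM in the controls and 4.53, 2.19 and 5.41 CPM with NET chromatin. All NET libraries were low. The decrease was 4.06-fold (log2 -2.02, SE 0.17, adjusted p = 9.78e-08, edgeR).

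Zfp110 came next. It encodes a KRAB protein with 5 fingers (chr7:12834761-12850577), known as NRIF, which binds the neurotrophin receptor p75. It stood at 37.1, 30.7 and 38.4 CPM in the controls and 11.9, 8.93 and 11.6 CPM with NET chromatin. Its decrease was 3.19-fold (log2 -1.68, SE 0.12, adjusted p = 2.17e-08, edgeR). Zfp369, its close relative and the other p75 interactor, fell by only 0.26 on the log2 scale (SE 0.09, adjusted p = 0.0189, edgeR), from 60.01, 50.6 and 56.8 CPM to 51.2, 45.3 and 43.6 CPM, and there the groups overlapped. The 2 genes are similar in sequence. Reads that mapped to several places were tallied apart from the genes, so either level may be too low.

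Zfp90, a KRAB gene on chromosome 8, had 19.2, 10.7 and 16.2 CPM in the controls and 4.28, 4.55 and 5.41 CPM with NET chromatin. Its controls were uneven. Zfp568, a KRAB repressor known for silencing a placental Igf2 transcript, went from 35.3, 26.8 and 37.3 CPM to 16.9, 7.08 and 11.8 CPM, and Zfp316, another KRAB gene, from 22.9, 20.8 and 23.6 CPM to 9.67, 7.92 and 8.11 CPM. All of these fell, by 3.08-fold, 2.71-fold and 2.63-fold.

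Among genes in which no KRAB domain was scored, Zfp651 had 16.3, 16.95 and 16.5 CPM in the controls and 6.12, 3.37 and 5.92 CPM with NET chromatin. Zfp397 had 35.9, 32.4 and 43.2 CPM and 17.01, 12.5 and 12.1 CPM, and Zfp37 had 15.9, 10.05 and 13.4 CPM and 5.88, 5.56 and 5.10 CPM. The decreases were 3.05-fold, 2.73-fold and 2.39-fold. Zfp629, with 19 fingers, fell 2.28-fold, from 26.1, 18.996 and 23.2 CPM to 12.5, 7.58 and 9.49 CPM.

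**Figure D3:**
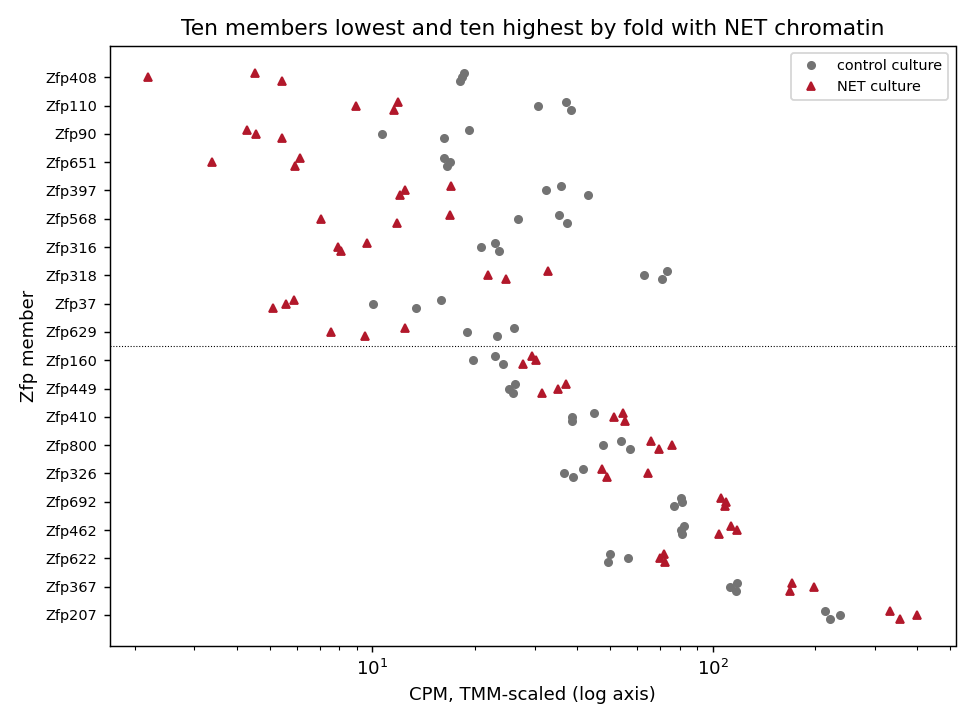
Level of 20 Zfp members in each culture library (x axis, CPM on a log scale), with control libraries as grey circles and NET libraries as red triangles. Above the dotted line are the 10 members with the greatest decreases among those called without overlap, from Zfp408 to Zfp629, and below it the 10 with the greatest increases, up to Zfp207.

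The increases were smaller. Zfp207, which encodes a microtubule and kinetochore protein that also takes part in splicing, rose from 214, 237 and 221 CPM to 332, 398.8 and 355 CPM. The increase was 1.61-fold (log2 0.69, SE 0.07, adjusted p = 7.16e-07, edgeR). Zfp367, a transcription factor linked to the cell cycle, had 118, 112 and 117 CPM in the controls and 171, 198.7 and 169 CPM with NET chromatin, 1.54-fold higher (adjusted p = 1.8e-06, edgeR).

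Zfp622, which takes part in maturation of the large ribosomal subunit, rose 1.38-fold, from 49.9, 56.5 and 49.2 CPM to 72.1, 70.3 and 72.6 CPM. Zfp462, a chromatin protein with 33 fingers, rose 1.36-fold, from 82.6, 80.5 and 81.3 CPM to 113, 118 and 104 CPM. Zfp692 had 80.6, 81.1 and 76.7 CPM and 106, 109.7 and 109 CPM. The next members by size of increase were Zfp326, Zfp800, Zfp410, Zfp449 and Zfp160, with log2 values of 0.44, 0.41, 0.41, 0.41 and 0.37. Zfp410 is known as an activator of Chd4, and Zfp160 was the KRAB gene with the greatest increase among those without overlap.

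Counts by protein class are given beside the shares of all genes at the same count levels, and no class was tested against another. Of the 74 KRAB members, 44 fell (59.5%, where 36.4% of all genes at their levels did) and 4 rose (5.41% against 17.8%), with a median log2 fold change of -0.34. Of the 62 members with 5 or more fingers and no KRAB domain, 36 fell (58.1% against 33.4%) and 10 rose (16.1% against 21.1%), with a median of -0.35. Among the 26 with 1 to 4 fingers and no KRAB domain, 6 fell (23.1% against 28.4%) and 9 rose (34.6% against 27.8%), with a median of -0.05, so their shares lay near those of all genes. Counted by fingers alone, 10 of 36 members with 0 to 4 fingers fell, and so did 31 of 52 with 5 to 9, 31 of 51 with 10 to 14 and 16 of 28 with 15 or more. Of all genes at the minimum 27.6% fell, and the counts by fingers were not weighted to count level. Members with 1 to 4 fingers and no KRAB domain had a median count of 542, and KRAB members one of 207. The medians of KRAB members and of long finger arrays lay close together, and that of short arrays lay near 0.

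KRAB genes were 51 of the 81 members with another member within 500 kb and 23 of the other 86. Of the 81, 50 fell (61.7%, where 36.2% of all genes at their count levels did) and 5 rose, with a median of -0.36. Of the 86, 38 fell (44.2% against 31.9%) and 19 rose, with a median of -0.19. On chromosome 7, 24 of 39 fell and 3 rose, with a median of -0.53. Of all genes at the minimum count, on any chromosome, 27.6% fell and 28.9% rose.

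A run of 10 members, 7 of them KRAB genes, lay at chr7:29816114-30169750. In it 7 fell, 0 rose and 3 did not pass: Zfp790, Zfp940, Zfp74, Zfp568, Zfp82, Zfp260 and Zfp146 fell, with log2 values from -1.44 to -0.53. Zfp420, Zfp383 and Zfp382 lie between them, with log2 values of -0.22, 0.06 and -0.01. Neighbours in the run thus had unlike values: Zfp568 stood at 33.1 CPM in the controls and 11.9 CPM with NET chromatin, and Zfp382 at 29.0 and 29.2 CPM. A second run of 10, all KRAB genes, at chr17:21008903-22867134, had 5 that fell and 1 that rose, Zfp160. In that run Zfp53 fell 2.28-fold, from 83.4, 81.01 and 89.1 CPM to 42.8, 40.1 and 31.1 CPM. Both runs were chosen after their values were seen. Of all genes at the minimum count, 27.6% fell and 28.9% rose. Shares at the count levels of the runs were not worked out. KRAB genes of a run are alike in sequence. Reads that mapped to several places were not counted for any gene, so levels in a run may be too low.

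The next list holds genes that act on RNA or ribosomes. Of 11 such genes, 9 were members (Zfp473 and Zfp593 were under the minimum), and 6 of them rose and 2 fell, with a median of 0.27. At the count levels of these 9, 33.9% of all genes rose and 24.3% fell, and no difference was tested. Under scaling by library totals, 3 rose and 3 fell, where 13.95% of all genes tested rose and 40.6% fell. Beside Zfp207, Zfp622 and Zfp326, which links splicing to transcript elongation, the 3 others that rose were Zfp36, Zfp106 and Zfp598.

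Zfp36, or tristetraprolin, which brings decay enzymes to short-lived mRNAs and has fingers of another class, had 21.5, 22.5 and 22.8 CPM in the controls and 29.99, 27.97 and 27.8 CPM with NET chromatin, 1.28-fold higher. Zfp106, an RNA-binding protein, had 324, 284 and 313 CPM and 396, 353 and 363 CPM, 1.21-fold higher. Zfp598, the ubiquitin ligase that marks collided ribosomes, had 152, 174 and 173 CPM and 198, 188 and 194 CPM, 1.16-fold higher. These increases passed the threshold with TMM factors and missed it with library totals.

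Zfp318, needed for the splicing that yields IgD in B cells, fell 2.61-fold, from 73.6, 62.9 and 70.9 CPM to 32.8, 21.9 and 24.7 CPM. Zfp346, which binds double-stranded RNA, fell 1.21-fold, with overlapping libraries at 116, 105 and 118 CPM and 107, 80.2 and 91.1 CPM. Zfp830 had a log2 value of -0.14 (adjusted p = 0.303, edgeR).

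Of the 3 ubiquitin and SUMO ligases, Zfp91 fell, Zfp598 rose and Zfp451 did not pass. At the count levels of these 3, 20.7% of all genes fell and 38.2% rose. Zfp91, an E3 ligase in the alternative NF-kappaB pathway, had 72.4, 57.1 and 69.04 CPM in the controls and 37.3, 29.3 and 31.5 CPM with NET chromatin, 2.02-fold lower (adjusted p = 5.66e-07, edgeR). Zfp451, a SUMO ligase, had 79.2, 77.9 and 78.2 CPM and 73.7, 73.97 and 77.8 CPM. Its log2 value was -0.06 (SE 0.07).

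Transcription and chromatin factors without a KRAB role numbered 25 in their list, and 20 were members (Zfp362, Zfp423, Zfp503, Zfp521 and Zfp532 were not). Of these 20, 8 fell, 5 rose and 7 did not pass, with a median of -0.19. Among all genes at the count levels of these 20, 28.9% fell and 26.5% rose. Zfp703, a corepressor linked to breast cancer, fell 2.16-fold, from 15.003, 15.9 and 18.04 CPM to 8.69, 5.90 and 7.70 CPM, and Zfp704, at the count minimum, fell 1.34-fold. Zfp827, which recruits the NuRD complex to telomeres, fell 1.83-fold, from 25.3, 23.5 and 27.6 CPM to 14.8, 13.5 and 13.6 CPM. Zfp217, an oncogene product that works with histone demethylases, fell 1.66-fold, from 93.9, 88.1 and 89.8 CPM to 60.5, 49.03 and 53.4 CPM. In Zfp703, Zfp827 and Zfp217 the groups did not overlap.

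Zfp592 (log2 -0.60), Zfp523 (-0.58), Zfp384 (-0.53) and Zfp516 (-0.36), the last known from brown fat, also fell. Zfp143, the paralogue of Zfp523 that activates genes of small nuclear RNAs, did not pass, at 0.11 (SE 0.09), with 27.8, 27.2 and 25.2 CPM in the controls and 30.7, 27.8 and 28.1 CPM with NET chromatin. Zfp367, Zfp462, Zfp652, Zfp335 and Zfp281 rose. Zfp335, part of a histone methyltransferase complex, had 102, 134 and 113 CPM and 145, 142 and 145 CPM. Zfp281, a factor of pluripotent cells, had 31.3, 27.3 and 32.05 CPM and 35.4, 40.3 and 35.6 CPM. Its relative Zfp148 stood at 117, 115 and 116 CPM and 118, 110.2 and 109.5 CPM and did not pass, with a log2 value of -0.05. Zfp219, Zfp609, Zfp638, Zfp644 and Zfp687 did not pass, with log2 values from -0.20 to 0.04.

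Of 6 KRAB genes known for silencing retroelements or imprinted genes, 5 were members (Zfp708 was not), and 3 fell and 1 rose. At the count levels of these 5, 36.7% of all genes fell and 17.5% rose. Zfp57 and Zfp445 both keep methylation at imprinted regions, and they moved apart. Zfp57 had 14.4, 11.5 and 11.3 CPM in the controls and 15.7, 14.2 and 18.1 CPM with NET chromatin, a small overlapping increase of 1.34-fold (adjusted p = 0.0116, edgeR), which missed the threshold with library totals and with DESeq2. Zfp445 had 96.3, 71.8 and 95.6 CPM and 64.02, 60.7 and 58.9 CPM, 1.44-fold lower (adjusted p = 0.00028, edgeR). Zfp809, which silences murine leukaemia proviruses, fell 1.27-fold, from 17.9, 15.6 and 16.4 CPM to 14.2, 15.2 and 11.3 CPM, a call that DESeq2 did not make. Zfp932 did not pass, at a log2 value of -0.11.

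The partners that KRAB proteins recruit are not members, and their list moved in both directions. Of 17 genes, 7 rose and 6 fell, with a median of 0.16 under TMM factors and -0.00 under library totals, where 4 rose and 7 fell. Library totals moved all genes too, to a median of -0.16 with 40.6% lower and 13.95% higher. Relative to that median, the list's median was 0.15. With TMM factors, 28.9% of all genes at the minimum rose and 27.6% fell. At mean counts of 1600 or more, where Trim28 and Cbx5 lie, 55.0% of all genes rose and 10.4% fell. Shares at the count levels of this list were not worked out. Trim28, the KAP1 corepressor, had 281, 304 and 278 CPM in the controls and 356, 359.9 and 368 CPM with NET chromatin (log2 0.33, adjusted p = 0.000233, edgeR). Setdb1, its histone methyltransferase, fell by 0.33 on the log2 scale, and Morc2a, a gene of the HUSH silencing pathway, fell by 1.31. Cbx5 and Cbx3, which encode HP1 proteins, rose, by 0.65 and 0.55.

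Other zinc finger families at the same minimum count were read from the same fit. Of 13 Zscan and Zkscan genes, which encode SCAN-domain zinc finger proteins, 10 fell and 0 rose, with a median of -0.51; all 13 were tested by edgeR. Among 14 symbols with letters after the Zfp number, 9 fell and 1 rose (median -0.34), and among 12 Klf genes 6 fell and 2 rose (median -0.26). The 32 Zbtb genes had 10 that fell and 9 that rose, with a median of -0.10. Of all genes at the minimum, 27.6% fell and 28.9% rose, and the Zbtb counts lay near these shares. Shares at the count levels of each family were not worked out. No difference between the families was tested.

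Levels per length were compared as CPM per kilobase of exon. In the control cultures the members ran from 0.647 to 51.6, with a median of 5.63. Zfp869 was highest at 51.6, then Zfp598 at 42.6, Zfp692 at 40.5, Zfp292 at 38.6 and Zfp655 at 35.01. By CPM alone, Zfp292 was the most abundant, at 391, 354 and 413 CPM in the controls and 318, 367 and 315 CPM with NET chromatin.

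In the tumours, hardly any member passed the test. Laparotomy in WT hosts gave 0 calls among the 167 members, where 0.0547% of 14615 genes were called; 16 members had an unadjusted p under 0.05, and DESeq2 called 3. Laparotomy in PAD4 KO hosts gave 0 calls against 0.52% of all genes, with 27 members at an unadjusted p under 0.05 and 6 called by DESeq2. KO against WT hosts gave 0 calls without surgery (0.116% of all genes; 20 members unadjusted, 3 by DESeq2) and 0 with laparotomy (0.0205% of all genes; 23 unadjusted, 2 by DESeq2). The interaction, laparotomy in KO hosts minus laparotomy in WT hosts, gave 1 call, Zfp292, against 0.677% of all genes, with 28 members unadjusted and 9 by DESeq2. Unadjusted p-values under 0.05 (edgeR) were less frequent among members than among all genes at the minimum in each comparison. For laparotomy the shares were 9.58% against 16.3% in WT hosts and 16.2% against 17.5% in KO hosts. For KO against WT hosts they were 11.98% against 16.5% without surgery and 13.8% against 15.1% with laparotomy. For the interaction they were 16.8% against 19.4%. No such share is given for DESeq2. The edgeR quasi-likelihood test had 2 libraries a group here, and tumour libraries varied more than cultures, with a biological coefficient of variation of 0.278 against 0.0633.

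As a description, the members' median log2 values were 0.11 for laparotomy in WT hosts and -0.14 in KO hosts, and all genes at the minimum had 0.07 and -0.01. For KO against WT hosts, medians were 0.09 without surgery and -0.17 with laparotomy, beside 0.04 and -0.04 over all genes. For the interaction the members' median was -0.24, with 129 of 167 below 0, and that of all genes was -0.07, with 57.3% below 0. These comparisons share libraries with each other. Single libraries moved the medians by over 1.5 times: laparotomy in WT hosts stood at 0.18 without WT control replicate 1, and laparotomy in KO hosts at -0.06 without KO control replicate 1. KO against WT hosts without surgery stood at 0.16 and 0.04 without these libraries in turn.

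One tumour library, WT control replicate 2, stood apart in markers of other cells. Its 9 pan-leukocyte markers summed to 876 CPM, where the other tumour libraries had 77.5 to 176 CPM. Its macrophage, neutrophil and lung epithelium lists summed to 1620, 802 and 789 CPM, each the highest of the 8 libraries. None of these markers was at 0 in its group. A second library, KO control replicate 2, was next in markers of lung epithelium, at 418 CPM, and of endothelium, at 285 CPM. The 6 other tumour libraries had 15.9 to 139 CPM and 51.0 to 117 CPM for these lists. Without WT control replicate 2 the members' medians were 0.08 for laparotomy in WT hosts, 0.06 for KO against WT hosts without surgery and -0.19 for the interaction. Without KO control replicate 2 they were -0.20 for laparotomy in KO hosts, 0.15 for KO against WT hosts without surgery and -0.28 for the interaction. The part of other cells in the tumour values was not tested.

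Zfp292, a large zinc finger transcription factor, was the member called in the interaction. It had 96.02 and 96.3 CPM in WT control tumours and 149 and 134 CPM with laparotomy. In KO hosts it had 117 and 122 CPM in control tumours and 96.8 and 87.04 CPM with laparotomy. The order was thus opposite in the 2 hosts, with no overlap within either. The interaction was -0.93 on the log2 scale (SE 0.15, adjusted p = 0.0447, edgeR), with log2 values of 0.55 in WT hosts and -0.38 in KO hosts, neither of which passed alone. Without WT control replicate 2 the adjusted p was 0.0655 (edgeR), and the call was lost without 7 of the 8 libraries in turn, while the log2 value stayed between -1.02 and -0.86.

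The other members with the smallest p-values were not called by edgeR. Zfp275 had 76.01 and 67.3 CPM in WT control tumours, 80.5 and 82.8 CPM with laparotomy, 109 and 96.1 CPM in KO control tumours and 70.1 and 70.5 CPM with laparotomy. Its interaction was -0.74 on the log2 scale (adjusted p = 0.0808, edgeR). Zfp609 had an interaction of -0.97 (adjusted p = 0.0974, edgeR), from 88.7 and 71.004, 116 and 108, 119.7 and 95.998 and 84.4 and 70.7 CPM in the same order of groups.

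Zfp395 had 39.004 and 35.7 CPM in WT hosts with laparotomy and from 17.3 to 23.8 CPM in the 6 other tumour libraries. The log2 values were 0.84 for laparotomy in WT hosts (adjusted p = 0.138, edgeR) and -0.94 for KO against WT hosts with laparotomy (adjusted p = 0.144, edgeR). Zfp655 was lowest in the WT control tumours, at 142 and 155 CPM, and between 193 and 219 CPM in the other groups. Zfp704 was lowest in KO hosts with laparotomy, at 3.97 and 2.90 CPM, after 10.1 and 14.6 CPM without (log2 -1.85, adjusted p = 0.0865, edgeR). Zfp629, Zfp462 and Zfp512 were the other members chosen by smallest p, with adjusted p-values by edgeR of 0.119 for laparotomy in KO hosts, 0.173 for KO against WT hosts without surgery and 0.165 for KO against WT hosts with laparotomy.

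**Figure D4:**
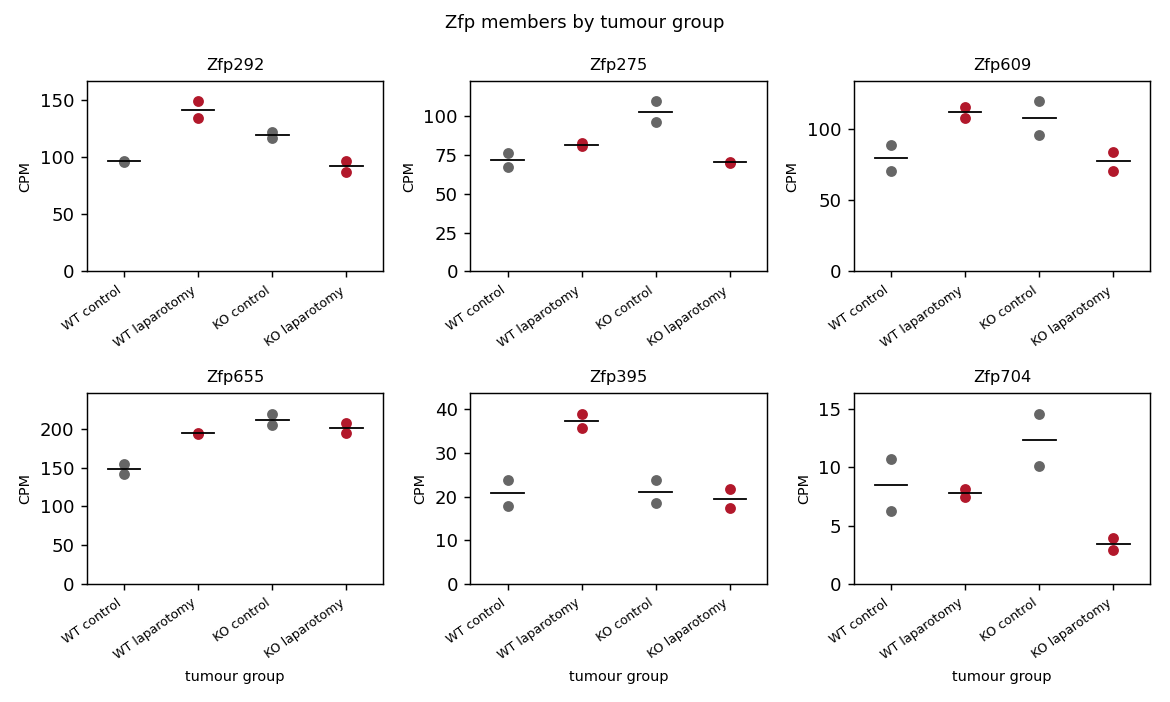
Level of 6 Zfp members (y axis, CPM, from 0) in the 4 tumour groups (x axis), with 1 point per library, grey without and red with laparotomy, and a bar at the mean of 2. Zfp292 goes up with laparotomy in WT hosts, from 96.0 and 96.3 to 149 and 134 CPM, and down in KO hosts.

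The 4 members with printed promoters were also followed into the tumours. Zfp408, at 4.53, 2.19 and 5.41 CPM in NET cultures, had 18.003 to 25.8 CPM in the 8 tumour libraries, and Zfp110 had 37.6 to 50.01 CPM there. Their control cultures had 18.6, 18.4 and 18.04 CPM and 37.1, 30.7 and 38.4 CPM. Zfp207 had 226 to 289 CPM in the tumours, and Zfp367 39.5 to 65.8 CPM, below every culture library. Culture and tumour libraries were normalised separately, so such pairs of levels have no test.

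Across all members, the mean tumour level lay below the control cultures in 101 of 167 (60.5%), with a median log2 ratio of -0.18. Of all genes at the minimum 52.4% lay below, with a median of -0.04. With library totals the medians were -0.26 for members and -0.12 for all genes at the minimum. Both sets were chosen by culture counts, so a gene low in culture could not enter, however high in tumours. The comparison was therefore not tested. The members furthest below were Zfp365, at 39.3 CPM in control cultures and 1.37 to 5.28 CPM in tumours, Zfp346, at 113 and 21.96 to 30.6 CPM, and Zfp369, at 55.8 and 10.7 to 17.2 CPM. The members furthest above were Zfp36, at 22.3 CPM in control cultures and 179 to 538 CPM in tumours, and Zfp703, at 16.3 and 54.7 to 106 CPM. All tumour libraries lay on the same side of the control cultures for these 5.

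Zfp36 is an immediate early gene that leukocytes express too. It had 179 and 435 CPM in the WT control tumours, 317 and 357 CPM with laparotomy, 443 and 403 CPM in KO control tumours and 479.6 and 538 CPM with laparotomy. The low value was WT control replicate 1 and the higher one the library with most leukocyte markers; without the latter, Zfp36 was called in KO against WT hosts without surgery. Pan-leukocyte markers summed to 77.5 to 876 CPM in the tumours and at most 17.5 CPM in cultures, and their part was not tested. Over the 8 tumour libraries the median member varied by 0.63 log2 units between its lowest and highest library, and 1 member, Zfp704, varied over 4-fold.

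**Figure D5:**
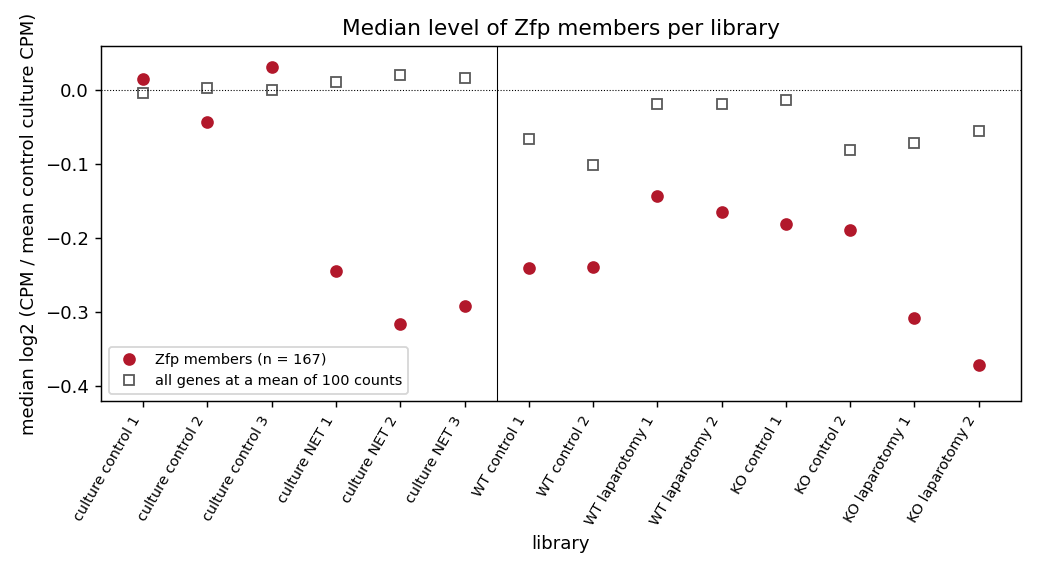
Median over the 167 Zfp members (red circles) and over all genes at the minimum count (open squares) of the log2 ratio of each library to the mean control culture (y axis), for 14 libraries (x axis). NET cultures lie at -0.24 to -0.32 for the members and near 0 for all genes, and among the tumours those of KO hosts with laparotomy are lowest, at -0.31 and -0.37; tumour and culture libraries, split by the line, were normalised separately.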

How the data were processed

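RNA was measured in 14 libraries, 3 in each of 2 culture groups and 2 in each of 4 tumour groups. Each deposited value is a read count for 1 gene, made by the authors with Trimmomatic, STAR and the mouse build mm10, per the submitters' processing notes; the sources used here give no versions or gene annotation. The unstranded count column was used, and reads of antisense and overlapping genes cannot be told apart in it. Gene counts summed to 6389217 to 20607281 in culture and 10844282 to 31255721 in tumours.

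Tests used edgeR 4.0.16 in R 4.3.3 (filterByExpr, TMM factors, robust quasi-likelihood fit, Benjamini-Hochberg adjustment), in 1 fit of the 6 culture libraries (11753 genes) and 1 of the 8 tumour libraries (14615 genes), each with 4 residual degrees of freedom. Standard errors came from the F statistic. On simulated counts with the culture settings, 91.7% of changes of 1.0 log2 unit were recovered among 11692 genes, and with those of laparotomy in WT hosts 35.9% among 14365 genes. Alternatives were RLE factors, library totals, no filter, DESeq2 1.42.0, the strand-specific column, a replicate block, left-out libraries, the compared groups only and member minima of 50 and 200.

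Fingers and KRAB boxes were read from coding sequences of GENCODE M21 (GRCm38). The KRAB pattern was widened after a first one missed known KRAB proteins. The members and all lists were chosen with earlier results of these data known. Named genes were the 10 largest changes each way with NET chromatin among called members without overlap, the 3 smallest p-values in each tumour comparison, the role lists, the 5 highest levels per length, the tumour extremes and the members at the count minimum. The runs of neighbouring members were chosen after their values were seen.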

Additional observations from a re-analysis of the deposited data

Results flagged for a closer look

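Laparotomy went with a higher level of Zfp292 in both tumour libraries of WT hosts and a lower level in both of PAD4 KO hosts, and the difference between the effects was tested. It was -0.93 on the log2 scale (KO minus WT, SE 0.15, adjusted p = 0.0447, edgeR quasi-likelihood test with 2 libraries a group). Its adjusted p ran from 0.000179 with DESeq2 to 0.265 without WT laparotomy replicate 1.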

How the results depend on the processing

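In the NET comparison, members called lower numbered 88 with TMM or RLE factors or the strand-specific column, 91 without a filter on low counts, and 79 with DESeq2. Leaving out 1 library at a time gave 72 to 86 lower, 19 to 25 higher, and medians from -0.29 to -0.25. With a replicate block there were 90 lower and 26 higher. Library totals moved the median of all genes to -0.16 and that of the members to -0.42, with 110 members lower and 10 higher; the share of all genes tested was then 40.6% lower and 13.9% higher, against 65.9% and 5.99% of members. A member minimum of 50 gave a median of -0.35 over 218 members, and one of 200 gave 43 lower and a median of -0.12 over 104 members; fewer weakly expressed genes enter there. The stricter KRAB pattern was the one set first, and the wider pattern behind the main KRAB class replaced it later. The stricter pattern, kept as an alternative, held 58 members, of which 32 fell.

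In the tumours, the interaction had 1 member called lower (Zfp292) with TMM or RLE factors, library totals, the strand-specific column and member minima of 50 and 200. The other counts of called members were 0 except as follows. Without a filter, 1 was higher for laparotomy in WT hosts (Zfp292), 1 lower for laparotomy in KO hosts (Zfp704), 2 lower for KO against WT hosts with laparotomy and 3 lower for the interaction. DESeq2 gave 3 higher for laparotomy in WT hosts, 6 lower in KO hosts, 3 higher for KO against WT hosts without surgery, 2 lower with laparotomy and 9 lower for the interaction. The interaction had 0 called with a replicate block, where the adjusted p of Zfp292 was 0.0719 by edgeR. Leaving out 1 library gave 0 to 2 lower for the interaction, 0 to 1 lower for laparotomy in KO hosts, and 0 to 1 higher for KO against WT hosts without surgery (Zfp36, without WT control replicate 2). Members' medians then ran from 0.082 to 0.177 for laparotomy in WT hosts, from -0.198 to -0.061 in KO hosts, from 0.037 to 0.156 for KO against WT hosts without surgery, from -0.19 to -0.16 with laparotomy and from -0.30 to -0.18 for the interaction. The cause of these changes was not tested. The labels do not say whether a replicate number marks a shared batch. Deviations of libraries with the same number correlated from -0.03 to 0.09 in culture and from -0.12 to 0.36 in the tumours, so no pairing was taken. With 2 libraries a group and the recovery given for the simulation, tumour changes under 1 log2 unit were mostly not detectable.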
